A study of Mus musculus with 3 samples.

Results

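Collagen genes were taken as every gene whose symbol reads Col, a number, the letter a and a number, and 44 of the 32285 features in the count tables met this rule. They code for the chains from which collagen trimers are built. The 44 genes comprised 11 fibrillar collagens, 6 basement membrane collagens, 6 microfibrillar collagens, 9 fibril-associated collagens with interrupted triple helices, 2 multiplexins, 3 network collagens, 4 transmembrane collagens and 3 others. In the nuclei kept, 42 of the 44 had at least 1 UMI (a counted RNA molecule), and 26 had at least 50 UMIs in at least 1 class of nuclei. Col2a1, the cartilage fibril collagen, and Col9a2, a collagen on the surface of cartilage fibrils, had 0 UMIs. The counts came from single-nucleus RNA sequencing of frozen liver from male C57BL/6N mice that were 8 weeks old at the start, with 1 library for each of 3 groups. The SD group ate a standard diet. The MASLD group was fed for 18 weeks to model metabolic dysfunction-associated steatotic liver disease, with a custom diet and a sugar drink holding 18.9 g/L D-glucose and 23.1 g/L fructose. The Aza-TdC group had this same diet and drink for 18 weeks and was given Aza-TdC (5-Aza-4′-thio-2′-deoxycytidine), a cytidine analogue that lowers DNMT1, by daily oral gavage at 2 mg/kg from week 14 to week 18. Each library was made from 120 mg of tissue, and the number of mice behind a library was not given in the sources used here. With 1 library per group no test of a group difference was possible, and the 95% intervals below cover counting error only.

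Collagens are secreted as trimers of chains whose prolines and lysines are modified in the endoplasmic reticulum. Fibrillar collagens form the cables of scar and stroma, type IV collagens form the sheet-like network of basement membranes, and fibril-associated collagens coat and space the fibrils. In liver, hepatic stellate cells are the main source of fibrillar collagen in fibrosis, the mesothelium covers the organ's surface, and the sinusoidal endothelium lies on a sparse matrix without a continuous basement membrane. DNMT1 copies the methylation of CG dinucleotides to the new DNA strand when a cell divides.

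The sequences upstream of 3 members are shown because they include collagen starts with many CG dinucleotides and with none. The stretch between a pair of type IV members is shown beside them, and CG dinucleotides are in capitals. Each is from RefSeq on GRCm38.p6 and ends at the base before the annotated start, except the last, which is the whole stretch between the starts of Col4a4 on the minus strand and Col4a3 on the plus strand. Methylation was not measured in the data used here. Col3a1 is at chr1:45311288-45311537 on the plus strand, Col5a1 at chr2:27886175-27886424 on the plus strand, Col13a1 at chr10:61979109-61979358 on the minus strand, and the Col4a4 to Col4a3 stretch at chr1:82586850-82586920, written on the plus strand.
Col3a1: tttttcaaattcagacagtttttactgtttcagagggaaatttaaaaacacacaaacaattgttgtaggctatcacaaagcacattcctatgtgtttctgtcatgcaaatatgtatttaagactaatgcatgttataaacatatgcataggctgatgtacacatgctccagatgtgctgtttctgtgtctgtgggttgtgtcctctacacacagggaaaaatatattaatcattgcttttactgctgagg
Col5a1: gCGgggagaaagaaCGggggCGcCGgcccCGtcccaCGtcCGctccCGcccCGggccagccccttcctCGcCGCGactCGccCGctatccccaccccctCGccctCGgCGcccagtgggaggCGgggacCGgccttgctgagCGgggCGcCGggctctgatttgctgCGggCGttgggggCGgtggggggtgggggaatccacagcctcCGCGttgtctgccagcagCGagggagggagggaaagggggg
Col13a1: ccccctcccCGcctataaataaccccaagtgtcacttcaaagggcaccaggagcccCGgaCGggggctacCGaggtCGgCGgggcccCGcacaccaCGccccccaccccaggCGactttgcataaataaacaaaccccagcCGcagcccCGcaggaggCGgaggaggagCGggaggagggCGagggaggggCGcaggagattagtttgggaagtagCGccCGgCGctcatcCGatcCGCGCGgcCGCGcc
Col4a4 to Col4a3: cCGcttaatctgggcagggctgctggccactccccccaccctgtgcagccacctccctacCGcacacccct
The 250 bases upstream of Col3a1 held 0 CG dinucleotides, against 28 for Col5a1 and 24 for Col13a1. The 71 bases between Col4a4 and Col4a3 held 2, in a shorter stretch, and the 250 bases upstream of Col4a4 held 10. RefSeq gave full windows for 35 of the 44 collagen genes, 38 windows in all, with a median of 9.5 CG dinucleotides in the 250 upstream bases against 6 over all 32851 windows of the table. Windows without any CG made up 10.5% of the collagen windows and 7.87% of all windows.

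The 3 libraries held 7139 (SD), 6928 (MASLD) and 7598 (Aza-TdC) barcodes with 45162618, 43569644 and 51789068 UMIs, and pairs of libraries shared 9 to 15 barcode sequences. Clusters were made without the collagen genes and named from marker genes. Stellate-like nuclei numbered 77, 106 and 83 in SD, MASLD and Aza-TdC, mesothelial-like nuclei 29, 50 and 59, endothelial-like nuclei 116, 180 and 185, and hepatocyte-like nuclei 6856, 5988 and 6822. All 18 stellate, all 14 mesothelial and all 20 endothelial markers passed 2-fold in their class. Reln, a stellate marker, had 626, 778 and 644 UMIs in stellate-like nuclei. In CPM (counts scaled to 1000000 UMIs of the class) these were 2645, 2528 and 3101. The 18 stellate markers together reached 11304, 13954 and 16390 CPM in these nuclei, and the 11 portal fibroblast markers 59.2, 227 and 57.8 CPM. Stellate-like nuclei were shallow, with a median UMI count 0.34 times the median of their own library. Hepatocyte markers stood in stellate-like nuclei at 0.564, 0.600 and 0.355 times their level in hepatocyte-like nuclei, and free RNA and doublets as their source cannot be told apart here. Nuclei of the MASLD library also carried more mitochondrial RNA, with a median share in stellate-like nuclei of 0.317%, 1.29% and 0.360% in SD, MASLD and Aza-TdC.

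Collagen genes differed in the class of nuclei in which their level was highest. Levels were pooled over the 3 libraries and compared among the classes in which a gene had 20 or more UMIs. Of the 26 genes with at least 50 UMIs in a class, 7 were highest in stellate-like nuclei (Col1a2, Col4a1, Col4a2, Col5a1, Col6a3, Col14a1 and Col24a1) and 7 in mesothelial-like nuclei (Col3a1, Col4a3, Col4a4, Col4a5, Col4a6, Col5a2 and Col6a1). Col13a1 and Col23a1 were highest in endothelial-like nuclei, and 8 genes were highest in hepatocyte-like nuclei (Col5a3, Col6a6, Col7a1, Col12a1, Col15a1, Col18a1, Col25a1 and Col27a1). Of these 8, Col6a6, Col7a1, Col12a1 and Col25a1 had 20 UMIs in no other class, and each had a higher level on few UMIs elsewhere. Col25a1, for example, stood at 3.15 CPM in hepatocyte-like nuclei (426 UMIs) and at 16.0 CPM in stellate-like nuclei (12 UMIs), and Col12a1 at 5.13 CPM (694 UMIs) and at 12.5 CPM in mesothelial-like nuclei (5 UMIs). Col11a2 and Col20a1 were highest in macrophage-like nuclei. These pooled ranks did not hold in every library, since Col3a1 stood higher in stellate-like than in mesothelial-like nuclei of MASLD (510.2 against 302 CPM) and Col14a1 higher in mesothelial-like than in stellate-like nuclei of Aza-TdC (574 against 477 CPM). Collagen genes together made up 2088, 3181 and 2297 CPM in stellate-like nuclei of SD, MASLD and Aza-TdC, and 2462, 3079 and 3434 CPM in mesothelial-like nuclei. In endothelial-like nuclei they made up 843, 722 and 892 CPM, and in hepatocyte-like nuclei 975, 737 and 991 CPM.

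**Figure D1:**
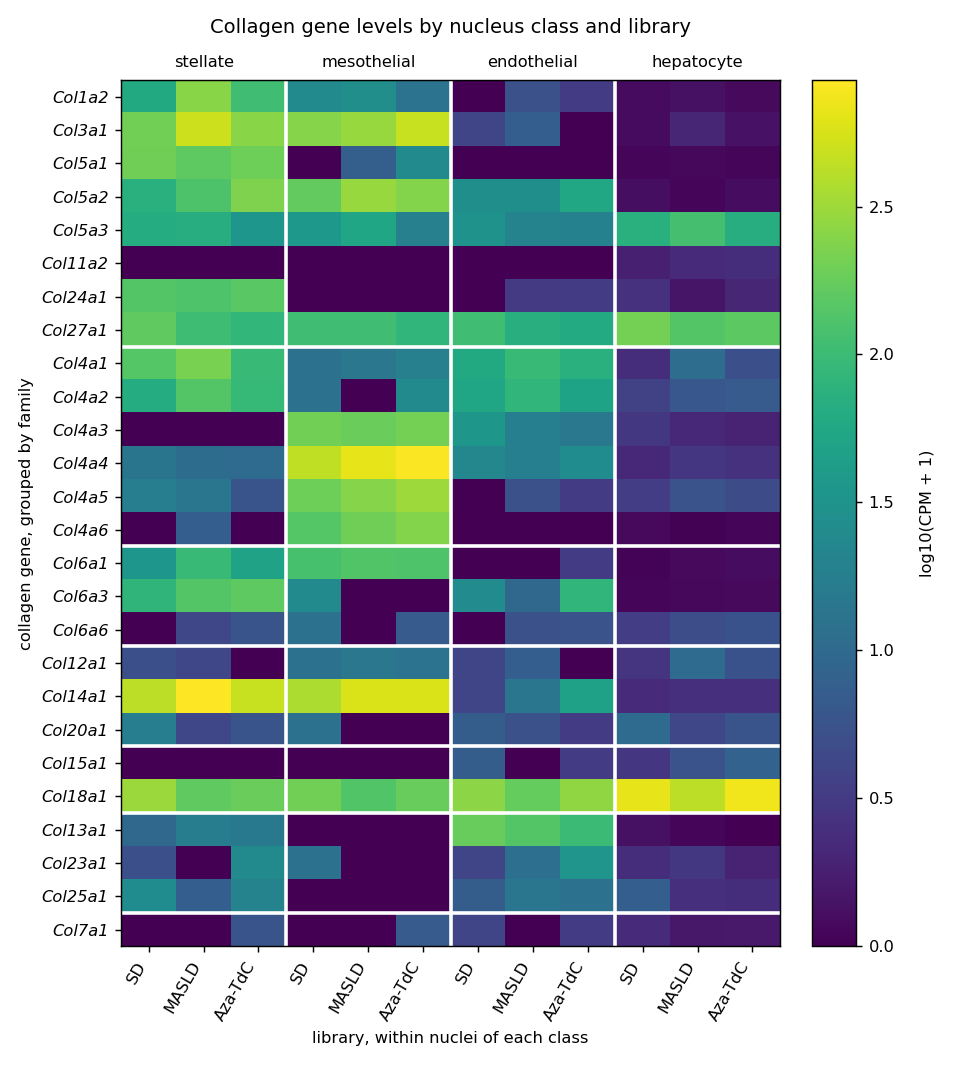
Levels of the 26 collagen genes with at least 50 UMIs in a class, as log10(CPM + 1), in stellate-, mesothelial-, endothelial- and hepatocyte-like nuclei (blocks of columns) of each library (columns, 1 library per group), with the genes grouped by family (blocks of rows). Col4a3 to Col4a6 stand out in the mesothelial block and Col18a1, Col27a1 and Col5a3 in the hepatocyte block.

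In stellate-like nuclei the type I and type III collagen chains stood higher in the MASLD library than in the other libraries. Col1a1 (ENSMUSG00000001506, GRCm38 chromosome 11, 94936224 to 94953042, plus strand) codes for the main chain of type I collagen and had 5, 34 and 7 UMIs in SD, MASLD and Aza-TdC. These counts were 21.1, 110.5 and 33.7 CPM. Col1a2 (ENSMUSG00000029661, chromosome 6, 4504814 to 4541544, plus strand), the other chain of type I collagen, had 14, 78 and 22 UMIs, or 59.2, 253 and 106 CPM. Both type I chains were thus highest in MASLD, and their intervals in MASLD lay above those of the other libraries. The log2 ratio of MASLD to SD was 2.39 (95% interval 1.02 to 4.10) for Col1a1 and 2.10 (1.27 to 3.04) for Col1a2. From MASLD to Aza-TdC the log2 ratio was -1.71 (-3.13 to -0.52) for Col1a1 and -1.26 (-2.01 to -0.56) for Col1a2. Both comparisons share the MASLD library, so its value alone can set opposite signs in them. Markers of other cell types also stood higher in MASLD than in SD in these nuclei. The macrophage markers summed to 16.9, 357 and 57.8 CPM in SD, MASLD and Aza-TdC, the endothelial markers to 380, 1378 and 2277 CPM, and the portal fibroblast markers to the values above. Of the portal fibroblast markers, Clec3b had 0, 33 and 0 UMIs, Pi16 0, 5 and 0, and Gli1 0 in each library. Their part in the result was not tested.

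Col3a1 (ENSMUSG00000026043, chromosome 1, 45311538 to 45349706, plus strand), whose type III homotrimer runs alongside type I, had 47, 157 and 53 UMIs in stellate-like nuclei of SD, MASLD and Aza-TdC, or 199, 510.2 and 255 CPM. It too was highest in MASLD, at a log2 ratio to SD of 1.36 (0.88 to 1.86), and the ratio of Aza-TdC to MASLD was -0.999 (-1.48 to -0.54), just inside 2-fold. The type V chains, which start fibrils and limit their width, did not share this pattern. Col5a1 (ENSMUSG00000026837, chromosome 2, 27886425 to 28039514, plus strand) had 46, 48 and 39 UMIs, or 194, 156 and 188 CPM, with a log2 ratio of MASLD to SD of -0.32 (-0.93 to 0.30). Col5a2 (ENSMUSG00000026042, chromosome 1, 45374321 to 45503282, minus strand), a neighbour of Col3a1, had 17, 39 and 48 UMIs, or 71.8, 127 and 231 CPM. Col5a2 was therefore highest in Aza-TdC, with a log2 ratio to MASLD of 0.87 (0.23 to 1.51). In nuclei with at most 1% mitochondrial UMIs this ratio was past 2-fold, at 1.65 (0.70 to 2.70), on 12 UMIs (77.1 CPM) in MASLD and 45 UMIs (241 CPM) in Aza-TdC. Col24a1, a fibrillar collagen described in developing bone, had 33, 40 and 31 UMIs, and its MASLD level differed from SD by a log2 ratio of -0.10 (-0.80 to 0.61). Per kilobase of gene span, Col3a1 was the most abundant fibrillar gene of stellate-like nuclei in each library, at 5.20, 13.4 and 6.69 CPM per kb, against 1.61, 6.90 and 2.88 for Col1a2 and 1.26, 6.57 and 2.00 for Col1a1.

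Summed over the 11 fibrillar genes, stellate-like nuclei held 215, 448 and 225 UMIs in SD, MASLD and Aza-TdC, or 909, 1456 and 1083 CPM. The log2 ratio of the sums was 0.68 (0.44 to 0.92) for MASLD to SD and -0.43 (-0.66 to -0.19) for Aza-TdC to MASLD. With nuclei classed by their own markers instead of by cluster (103, 151 and 86 nuclei), these ratios were 0.081 (-0.13 to 0.29) and -0.16 (-0.39 to 0.08), and both intervals include 0. A gene was read as measured in a comparison if the pair of libraries held 20 or more of its UMIs. Of 14 measured collagen genes, 5 were at least 2-fold higher in MASLD than in SD (Col1a1, Col1a2, Col3a1, Col4a2 and Col6a1) and 0 were 2-fold lower. Over all 5519 measured genes of stellate-like nuclei, 11.9% were 2-fold higher and 6.61% were 2-fold lower. The median log2 ratio was 0.81 over these 14 collagen genes and 0.0095 over all 5519 genes. From MASLD to Aza-TdC, 3 of 14 were 2-fold lower (Col1a1, Col1a2 and Col4a1) and 0 were 2-fold higher, beside 7.95% lower and 4.08% higher among all 5319 genes, with medians of -0.72 and -0.018. The other 30 collagen genes had too few UMIs in this class to be read.

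**Figure D2:**
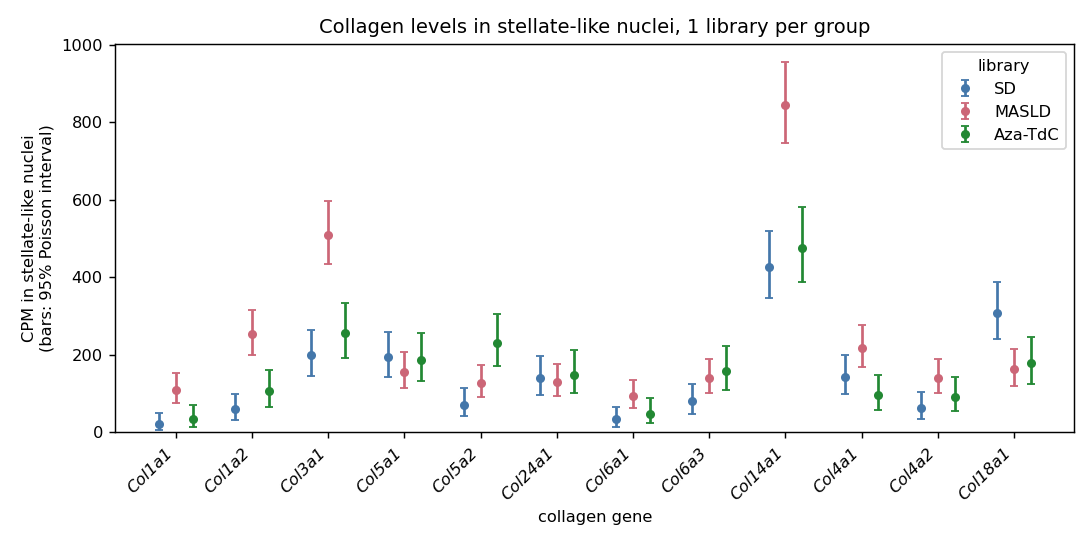
Levels of 12 collagen genes in stellate-like nuclei, as CPM (y axis) by gene (x axis), with 1 point per library and bars for the 95% Poisson interval of the UMI count. Col1a1, Col1a2, Col3a1 and Col14a1 are highest in MASLD, Col5a1 and Col24a1 have overlapping bars in all 3 libraries, and Col5a2 is highest in Aza-TdC.

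Many MASLD UMIs of the type I chains lay in a few nuclei. Most MASLD UMIs of the type I and type III chains lay in nuclei with more mitochondrial RNA. Of the 34 Col1a1 UMIs in MASLD, found in 9 of 106 nuclei, 28 were in the 4 nuclei with most of them, and the same count for Col1a2 was 43 of 78 and for Col3a1 66 of 157. Col3a1 was found in 52 of the 106 MASLD nuclei. In SD and Aza-TdC the 4 highest nuclei held 5 of 5 and 7 of 7 Col1a1 UMIs and 8 of 14 and 12 of 22 Col1a2 UMIs. These Col1a1 UMIs lay in only 4 and 3 nuclei, so the 4 highest had to hold them all. The Col1a1 counts therefore cannot show whether the concentration differed between libraries. For Col3a1 the 4 highest nuclei held 13 of 47 in SD and 27 of 53 in Aza-TdC. The single highest nucleus held 4, 24 and 14 Col3a1 UMIs in SD, MASLD and Aza-TdC. Col14a1 was spread more widely in MASLD, with 40 of its 260 UMIs in its 4 highest nuclei.

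Mitochondrial RNA marked a further division. All 77 SD nuclei had at most 1% mitochondrial UMIs, whereas 58 of the 106 MASLD nuclei and 12 of the 83 Aza-TdC nuclei were above 1%. The 58 MASLD nuclei above 1% held 31 of the 34 Col1a1 UMIs, 61 of the 78 Col1a2 UMIs, 111 of the 157 Col3a1 UMIs and 170 of the 260 Col14a1 UMIs. In the 48 MASLD nuclei at or below 1%, Col1a1 stood at 19.3 CPM (3 UMIs), beside 21.1 CPM in SD (5 UMIs) and 32.2 CPM (6 UMIs) in Aza-TdC nuclei under the same limit. Col1a2 stood at 59.2, 109 and 113 CPM in SD, MASLD and Aza-TdC under this limit, and Col3a1 at 199, 295 and 257 CPM. Under the limit the log2 ratio of MASLD to SD was 0.88 (-0.22 to 2.02) for Col1a2 and 0.57 (-0.05 to 1.19) for Col3a1, and the ratio of Aza-TdC to MASLD was 0.04 (-0.95 to 1.06) and -0.20 (-0.81 to 0.42). The fibrillar sum then had a log2 ratio of 0.12 (-0.19 to 0.43) for MASLD to SD and of 0.14 (-0.17 to 0.45) for Aza-TdC to MASLD. The difference between libraries in the type I and type III chains thus lay largely in nuclei above 1%, of which SD had none, so the diet and the mitochondrial share cannot be told apart for those nuclei. In MASLD stellate-like nuclei the haemoglobin gene Hbb-bs was also high, at 374 CPM against 16.9 in SD and 53.0 in Aza-TdC, and its part in the result was not tested.

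**Figure D3:**
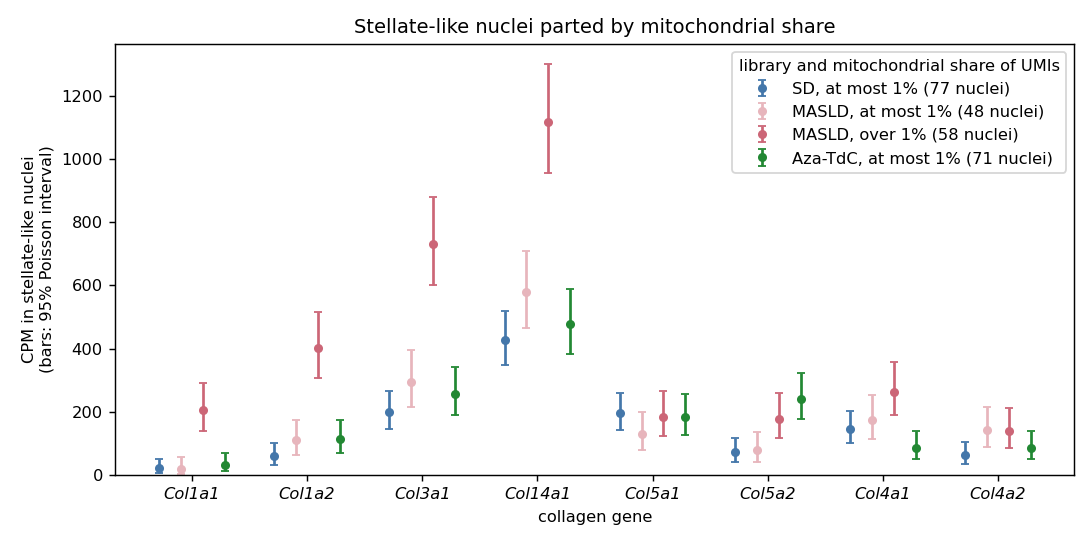
Levels of 8 collagen genes in stellate-like nuclei, as CPM (y axis) by gene (x axis), with nuclei of each library parted at a mitochondrial share of 1% of UMIs and bars for 95% Poisson intervals. MASLD nuclei above 1% are highest for Col1a1, Col1a2, Col3a1 and Col14a1, and the bars of the other 3 sets overlap for Col1a1, Col1a2 and Col3a1; the 12 Aza-TdC nuclei above 1% are not drawn.

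Outside the fibrils proper, Col14a1 (ENSMUSG00000022371, chromosome 15, 55307750 to 55520803, plus strand), a fibril-associated collagen that regulates fibril growth, was the collagen gene with most UMIs in stellate-like nuclei. It had 101, 260 and 99 UMIs in SD, MASLD and Aza-TdC, or 427, 845 and 477 CPM, with log2 ratios of 0.99 (0.65 to 1.33) and -0.83 (-1.17 to -0.49). In nuclei with at most 1% mitochondrial UMIs these ratios were 0.44 (0.01 to 0.86) and -0.28 (-0.72 to 0.16). With each nucleus thinned to 1000 UMIs, 35.1%, 58% and 30.4% of stellate-like nuclei had a Col14a1 UMI, against 0.102%, 0.134% and 0.191% of hepatocyte-like nuclei. Unthinned, the stellate shares were 53.2%, 80.2% and 48.2%, at median depths of 2211, 1973 and 1872 UMIs, while hepatocyte-like nuclei, at median depths of 5945.5, 6403 and 6745 UMIs, had shares of 0.758%, 1.04% and 0.982%. Thinning left out 6 MASLD and 4 Aza-TdC stellate-like nuclei. The Col14a1 share was thus highest in MASLD with and without thinning.

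Of the type VI chains, which form beaded microfibrils around cells, Col6a1 had 8, 29 and 10 UMIs, or 33.8, 94.2 and 48.1 CPM, and was highest in MASLD at a log2 ratio to SD of 1.48 (0.31 to 2.82). In nuclei with at most 1% mitochondrial UMIs that ratio was 0.93 (-0.57 to 2.47), on 10 MASLD and 8 SD UMIs. Col6a3 (ENSMUSG00000048126, chromosome 1, 90765923 to 90843971, minus strand) had 19, 43 and 33 UMIs, or 80.3, 139.7 and 159 CPM, and its MASLD and Aza-TdC values differed by a log2 ratio of only 0.19 (-0.51 to 0.87). Col18a1, whose C-terminal fragment is endostatin, had 73, 50 and 37 UMIs in stellate-like nuclei. Its level there was 0.469, 0.380 and 0.246 times that in hepatocyte-like nuclei of the same library, under the ratio of the hepatocyte markers in each library. These UMIs lay in 19 of 77, 17 of 106 and 12 of 83 nuclei, and the 4 nuclei with most of them held 32 of 73, 28 of 50 and 26 of 37. Their source was not tested. Col27a1, at 0.783, 0.745 and 0.568 times the hepatocyte level, was above that ratio.

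Genes that act on collagen were read beside the collagens in all stellate-like nuclei, without the limit of 1% mitochondrial UMIs. SD had no nuclei above that limit, and the part of the mitochondrial share in the ratios below was not tested. Of 20 folding and modification genes, 10 had enough UMIs for MASLD to SD, of which 4 were 2-fold higher and 0 were 2-fold lower, beside 11.9% and 6.61% of all genes. Between Aza-TdC and MASLD 1 of 10 was 2-fold higher (Plod2) and 2 were lower (Ppib and Serpinh1), beside 4.08% and 7.95%. Serpinh1, the collagen-specific chaperone HSP47, had 5, 57 and 5 UMIs in SD, MASLD and Aza-TdC, or 21.1, 185 and 24.1 CPM. Its log2 ratios of 3.13 (1.83 to 4.81) and -2.94 (-4.62 to -1.64) followed the order of the type I chains. P4hb, a subunit of prolyl 4-hydroxylase, had 13, 40 and 21 UMIs and a MASLD to SD ratio of 1.24 (0.31 to 2.27), while P4ha1, the catalytic subunit, had 29, 54 and 23 UMIs and a ratio of 0.52 (-0.16 to 1.22). Of 14 trimming and crosslinking genes 7 were measured, and 3 were 2-fold higher in MASLD, beside the same 11.9%. Adamts2, which removes the N-propeptide of procollagen, had 46, 51 and 24 UMIs, with a ratio of -0.23 (-0.83 to 0.38).

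Among the 12 fibril-associated proteoglycans and glycoproteins, 8 were measured and 5 were 2-fold higher in MASLD than in SD, beside 11.9% of all genes. For these and the following lists too, all stellate-like nuclei were used, and the part of the mitochondrial share was not tested. Dcn, the proteoglycan decorin that binds fibrils, had 297, 813 and 478 UMIs, and Sparc, a collagen-binding glycoprotein, had 28, 120 and 44. The log2 ratio of MASLD to SD was 1.07 (0.88 to 1.27) for Dcn and 1.72 (1.12 to 2.37) for Sparc. Dcn stood at 1255, 2642 and 2302 CPM, so that the ratio of Aza-TdC to MASLD was -0.20 (-0.36 to -0.03), smaller than for the type I chains. Of 14 turnover genes only Mmp14, Timp2 and Timp3 were measured in that comparison. The metalloproteinase inhibitor genes Timp2 and Timp3 were 2-fold higher in MASLD, with 8, 31 and 14 UMIs and 9, 52 and 27 UMIs. Of the collagen receptors, the integrin gene Itga1 had 156, 232 and 184 UMIs and Ddr2 20, 35 and 26, and 0 of the 3 measured differed by 2-fold between MASLD and SD. Of 19 genes of stellate activation and TGF beta signalling 13 were measured, with 2 higher (Tgfb1 and Tgfbr2), 1 lower (Ccn2) and a median log2 ratio of -0.12. These shares were close to the 11.9% higher and 6.61% lower among all genes. The smooth muscle actin gene Acta2, a common sign of stellate activation, had 0, 0 and 1 UMIs.

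The type IV chains divided between stellate-like and mesothelial-like nuclei along their paired genes. The division was less sharp in endothelial-like nuclei, with Col4a1 to Col4a4 at 77.3, 63.3, 20.6 and 21.4 CPM over the 3 libraries. In hepatocyte-like nuclei Col4a1, Col4a2 and Col4a5 stood at 5.14, 4.66 and 3.55 CPM. The 6 genes lie in 3 head-to-head pairs on GRCm38. On chromosome 8 Col4a1 (ENSMUSG00000031502, start 11312826, minus strand) and Col4a2 (ENSMUSG00000031503, start 11312805, plus strand) overlap by 22 bases. On chromosome 1 the starts of Col4a4 (ENSMUSG00000067158) and Col4a3 (ENSMUSG00000079465) have the 71 bases shown above between them. On the X chromosome the starts of Col4a6 (ENSMUSG00000031273) and Col4a5 (ENSMUSG00000031274) lie 1308 bases apart, and each pair is thus read from opposite strands.

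Col4a1 and Col4a2, which make the widespread basement membrane trimer, were found in stellate-like and endothelial-like nuclei. In stellate-like nuclei Col4a1 had 34, 67 and 20 UMIs in SD, MASLD and Aza-TdC, or 144, 218 and 96.3 CPM, and Col4a2 had 15, 43 and 19 UMIs, or 63.4, 139.7 and 91.5 CPM. Both were highest in MASLD, with log2 ratios to SD of 0.60 (-0.02 to 1.24) for Col4a1 and 1.14 (0.26 to 2.09) for Col4a2. The ratio of Aza-TdC to MASLD was -1.18 (-1.98 to -0.44) for Col4a1 and -0.61 (-1.47 to 0.20) for Col4a2. In nuclei with at most 1% mitochondrial UMIs the MASLD to SD ratio of Col4a2 was 1.16 (0.14 to 2.21) and the Aza-TdC to MASLD ratio of Col4a1 was -1.02 (-2.01 to -0.07), both close to the values in all nuclei. The MASLD to SD ratio of Col4a1 was 0.27 (-0.51 to 1.04) under that limit, and the Aza-TdC to MASLD ratio of Col4a2 -0.72 (-1.75 to 0.28). In endothelial-like nuclei Col4a1 had 19, 44 and 31 UMIs and Col4a2 17, 39 and 21, or 59.1, 94.8 and 72.0 CPM and 52.9, 84.1 and 48.8 CPM. Their intervals overlapped between the libraries there, with MASLD to SD ratios of 0.68 (-0.12 to 1.54) and 0.67 (-0.19 to 1.58). Of the 180 MASLD endothelial-like nuclei only 50 had at most 1% mitochondrial UMIs. Under that limit the MASLD to SD ratios were -0.25 (-1.58 to 0.96) for Col4a1 and 0.44 (-0.72 to 1.57) for Col4a2. They rest on 9 MASLD and 19 SD UMIs and on 13 and 17.

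Mesothelial-like nuclei had the highest pooled levels of the other 4 type IV genes. Their chains form the trimers best known from kidney glomeruli and from smooth muscle and epithelial basement membranes. Col4a4 had 38, 98 and 136 UMIs in SD, MASLD and Aza-TdC, or 448, 657 and 814 CPM, and was seen in 75.9%, 68% and 71.2% of these nuclei. Col4a3, its pair, had 17, 27 and 34 UMIs, or 200.2, 181 and 203 CPM. Col4a5 had 16, 37 and 52 UMIs and Col4a6 12, 29 and 40, or 188, 248 and 311 CPM and 141, 195 and 239 CPM. Col4a1, by contrast, had only 1, 2 and 3 UMIs in the same nuclei. In stellate-like nuclei Col4a3 had 0 UMIs in each library, which allows up to 12.7, 9.75 and 14.4 CPM. The far more numerous hepatocyte-like nuclei held 179 Col4a3, 209 Col4a4, 480 Col4a5 and 15 Col4a6 UMIs over the 3 libraries. Mesothelial-like nuclei held 78, 272, 105 and 81. The hepatocyte levels were low, at 1.32, 1.54, 3.55 and 0.111 CPM. The share of nuclei with a Col4a4 UMI after thinning was 37.9%, 45.7% and 52.7% in mesothelial-like nuclei and 0.0729%, 0.284% and 0.191% in hepatocyte-like nuclei. Per kilobase, Col4a4 was at 3.23, 4.75 and 5.88 CPM per kb and Col4a3 at 1.48, 1.34 and 1.51, so the members of this pair were not at equal levels.

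**Figure D4:**
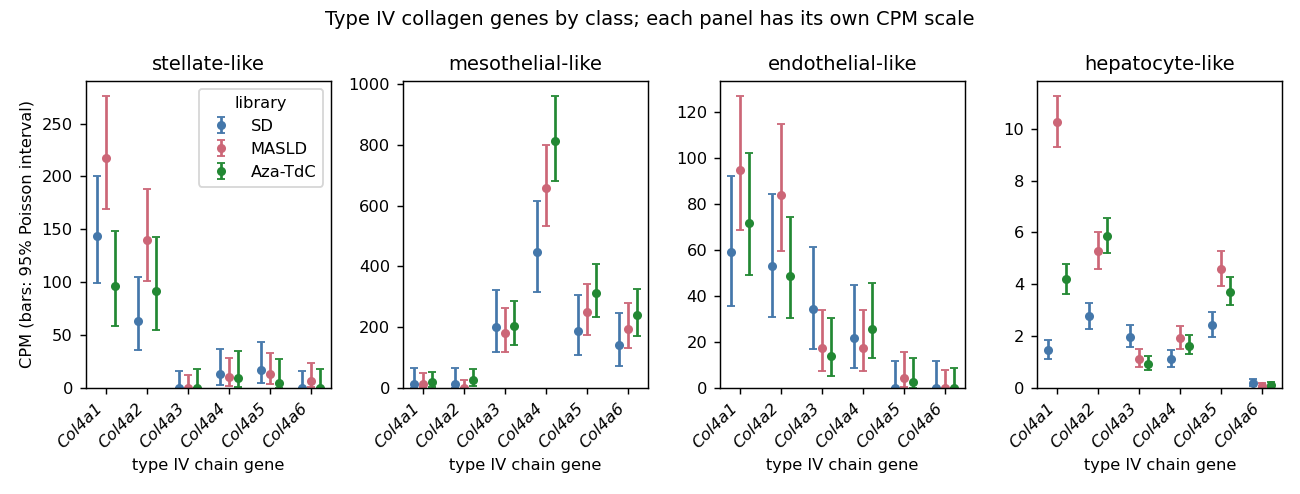
Levels of the 6 type IV collagen genes, as CPM (y axis, a separate scale in each panel) by gene (x axis), in 4 classes of nuclei (panels), with 1 point per library and bars for 95% Poisson intervals. Col4a1 and Col4a2 lead in stellate- and endothelial-like nuclei, and Col4a3 to Col4a6 lead in mesothelial-like nuclei in all 3 libraries.

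Mesothelial-like nuclei also carried fibril collagens. Col3a1 had 21, 45 and 80 UMIs in SD, MASLD and Aza-TdC, or 247, 302 and 479 CPM, and was highest in Aza-TdC, at a log2 ratio to MASLD of 0.66 (0.12 to 1.23). Col14a1 had 31, 85 and 96 UMIs, or 365, 570.1 and 574 CPM, and its MASLD to SD ratio was 0.64 (0.03 to 1.29). In nuclei with at most 1% mitochondrial UMIs that ratio was 0.015 (-0.88 to 0.88), on 20 MASLD and 30 SD UMIs. Col5a2 had 14, 44 and 40 UMIs, or 165, 295 and 239 CPM, and Col6a1 had 10, 20 and 22 UMIs, or 118, 134 and 132 CPM. Of the 11 collagen genes measured, 0 differed by 2-fold between MASLD and SD, beside 14.4% higher and 7.98% lower among all 2845 genes, and the medians were 0.29 and -0.0050. Between Aza-TdC and MASLD 1 was 2-fold lower, Col6a2 with 14 and 6 UMIs and a ratio of -1.39 (-3.05 to 0.08), beside 7.76% lower among all 3713 genes, and 0 were 2-fold higher, beside 6.73%. The 4 measured type IV genes had Aza-TdC to MASLD ratios between 0.17 and 0.33. Only 10 of the 50 MASLD nuclei had at most 1% mitochondrial UMIs, against 27 of 29 in SD and 45 of 59 in Aza-TdC. In those nuclei the type IV sum had a MASLD to SD ratio of -0.22 (-0.77 to 0.32) and an Aza-TdC to MASLD ratio of 1.03 (0.57 to 1.52), beside 0.37 (-0.0047 to 0.76) and 0.31 (0.04 to 0.59) in all mesothelial-like nuclei.

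In endothelial-like nuclei the leading class-restricted member was Col13a1 (ENSMUSG00000058806, chromosome 10, 61838236 to 61979108, minus strand), a transmembrane collagen of cell adhesion sites. It had 56, 65 and 42 UMIs in SD, MASLD and Aza-TdC, or 174, 140.1 and 97.6 CPM, and at most 0.361 CPM in hepatocyte-like nuclei. Col13a1 was highest in SD, with log2 ratios of -0.31 (-0.85 to 0.23) and -0.52 (-1.12 to 0.06), and both intervals include 0. In nuclei with at most 1% mitochondrial UMIs they were -0.89 (-1.77 to -0.09) and 0.05 (-0.82 to 0.98). Of 6 measured collagen genes 0 differed by 2-fold between MASLD and SD, beside 11.4% higher and 5.81% lower among all 6948 genes. Between Aza-TdC and MASLD 2 of 8 were 2-fold higher, beside 5.41% of all 7473 genes, and 0 were 2-fold lower, beside 6.24%. The higher genes were Col6a3, with 8, 4 and 36 UMIs in SD, MASLD and Aza-TdC, and Col14a1, with 1, 6 and 20. Their Aza-TdC to MASLD ratios were 3.28 (1.80 to 5.23) and 1.85 (0.48 to 3.45).

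Col6a3, however, was concentrated in a small endothelial cluster led by Vwf, a gene of larger vessels, that finer clustering separated. This cluster held 13, 5 and 38 nuclei of the SD, MASLD and Aza-TdC libraries. It contained 34 of the 36 Col6a3 UMIs and 13 of the 20 Col14a1 UMIs of the Aza-TdC endothelial-like nuclei, and all 8 and all 4 Col6a3 UMIs of SD and MASLD. Of the Col14a1 UMIs it contained 1 of 1 in SD and 0 of 6 in MASLD. Within it Col6a3 stood at 235, 334 and 351 CPM in the 3 libraries, with overlapping intervals. Col5a2, with 9, 1 and 15 UMIs, Col8a1, a network collagen of vessel linings, with 4, 0 and 10, and Col23a1, with 0, 1 and 12, were found there too. Col5a2 also had 0, 12 and 9 UMIs in the other endothelial-like nuclei. Col13a1 was nearly absent from the cluster, with 0, 0 and 2 UMIs there against 56, 65 and 40 in the other endothelial-like nuclei. Without this cluster (a choice made after seeing the data) 0 collagen genes were counted as 2-fold apart between Aza-TdC and MASLD. Col6a3 and Col14a1 then fell under the 20 UMIs needed, so this count cannot show whether their difference remained. The other endothelial-like nuclei of MASLD and Aza-TdC held 0 and 2 Col6a3 UMIs and 6 and 7 Col14a1 UMIs. Col13a1 and Col6a3 UMIs thus lay mostly in different sets of endothelial-like nuclei, which clustering on other genes had parted. The number of nuclei in the Vwf-led set moved with the Aza-TdC to MASLD ratios, and with 1 library per group the treatment and the piece of tissue cannot be told apart.

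Hepatocyte-like nuclei held most collagen UMIs, and Col18a1 (ENSMUSG00000001435, chromosome 10, 77052178 to 77166548, minus strand) alone had 29119, 17657 and 36054 of them in SD, MASLD and Aza-TdC. These were 657, 427 and 726 CPM. Col18a1 was lowest in MASLD, at a log2 ratio to SD of -0.62 (-0.65 to -0.59), and the ratio of Aza-TdC to MASLD was 0.76 (0.74 to 0.79). After thinning to 1000 UMIs, 48.5%, 33.4% and 50.2% of nuclei had a Col18a1 UMI. Col27a1, a fibrillar collagen of cartilage and other tissues, had 9089, 5764 and 7583 UMIs, or 205, 139 and 153 CPM, and was highest in SD. Col5a3, the third chain of type V collagen, ran the other way, with 3147, 4734 and 3232 UMIs, or 71.0, 115 and 65.0 CPM. Its log2 ratios were 0.69 (0.62 to 0.76) and -0.82 (-0.88 to -0.75). The hepatocyte values rest on different numbered clusters in each library, with SD in clusters 0, 1 and 4, MASLD mostly in 10 and 11, and Aza-TdC mostly in 9 and 12. Clusters 10 and 11 had 1 marker of another class each, Spp1 and Themis, among their 10 leading genes and none of the hepatocyte list, so they are compared as numbered clusters. Col18a1 stood at 630.4 and 682 CPM in clusters 0 and 1, at 432 and 427 CPM in the MASLD nuclei of clusters 10 and 11, and at 663 and 779 CPM in the Aza-TdC nuclei of clusters 9 and 12, so the MASLD value was the lowest in both of its main clusters. Slc19a1 overlaps Col18a1 on the other strand, and the use of strand in the counting was not given in the sources used here.

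Col4a1, Col12a1, Col15a1 and Col3a1 were at least 2-fold higher in MASLD than in SD in hepatocyte-like nuclei, at low levels. Col4a1 had 64, 424 and 208 UMIs in SD, MASLD and Aza-TdC, or 1.44, 10.3 and 4.19 CPM, and Col12a1, a fibril-associated collagen, had 79, 395 and 220 UMIs, or 1.78, 9.56 and 4.43 CPM. Both were lowest in SD and highest in MASLD, with MASLD to SD ratios of 2.83 (2.45 to 3.23) and 2.42 (2.07 to 2.79) and Aza-TdC to MASLD ratios of -1.29 (-1.54 to -1.05) and -1.11 (-1.35 to -0.87). Col15a1 (ENSMUSG00000028339, chromosome 4, 47208161 to 47313167, plus strand), a multiplexin of basement membrane zones, had 85, 189 and 365 UMIs, or 1.92, 4.57 and 7.35 CPM, and was highest in Aza-TdC instead, at a ratio to MASLD of 0.68 (0.43 to 0.94). Col3a1 had 9, 45 and 20 UMIs, or 0.203, 1.09 and 0.402 CPM, far under its level in stellate-like nuclei, and the part of free RNA in these UMIs was not tested.

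Col25a1, Col13a1, Col9a3, Col24a1, Col20a1 and Col7a1 were at least 2-fold lower in MASLD than in SD. Col13a1, highest in endothelial-like nuclei, had only 20 UMIs in hepatocyte-like nuclei of the 3 libraries together. The part of free RNA in them was not tested. Col25a1 (ENSMUSG00000058897, chromosome 3, 130131501 to 130599877, plus strand), a transmembrane collagen known from neurons and muscle innervation, had 291, 64 and 71 UMIs, or 6.57, 1.55 and 1.43 CPM. It was low in both libraries of the MASLD diet, with a ratio of -2.08 (-2.50 to -1.69) for MASLD to SD and of -0.12 (-0.62 to 0.39) for Aza-TdC to MASLD. Col20a1, a fibril-associated collagen, had 429, 134 and 236 UMIs, or 9.68, 3.24 and 4.75 CPM, with ratios of -1.58 (-1.87 to -1.29) and 0.55 (0.24 to 0.87). In all, 4 of 23 measured collagen genes were 2-fold higher in MASLD and 6 were 2-fold lower, beside 13.6% higher and 5.20% lower among all 15770 genes. The median log2 ratio of all genes was 0.15 here, so ratios read relative to it are lower by that amount, and that of the 23 collagen genes was 0.60. Between Aza-TdC and MASLD, 2 of 23 were 2-fold higher (Col9a3 and Col24a1) and 5 were lower (Col1a2, Col3a1, Col4a1, Col12a1 and Col23a1), beside 3.15% and 5.23% of all 15942 genes (8.38% either way), with medians of -0.096 and -0.092. The Col1a2 value rests on 9, 15 and 9 UMIs.

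**Figure D5:**
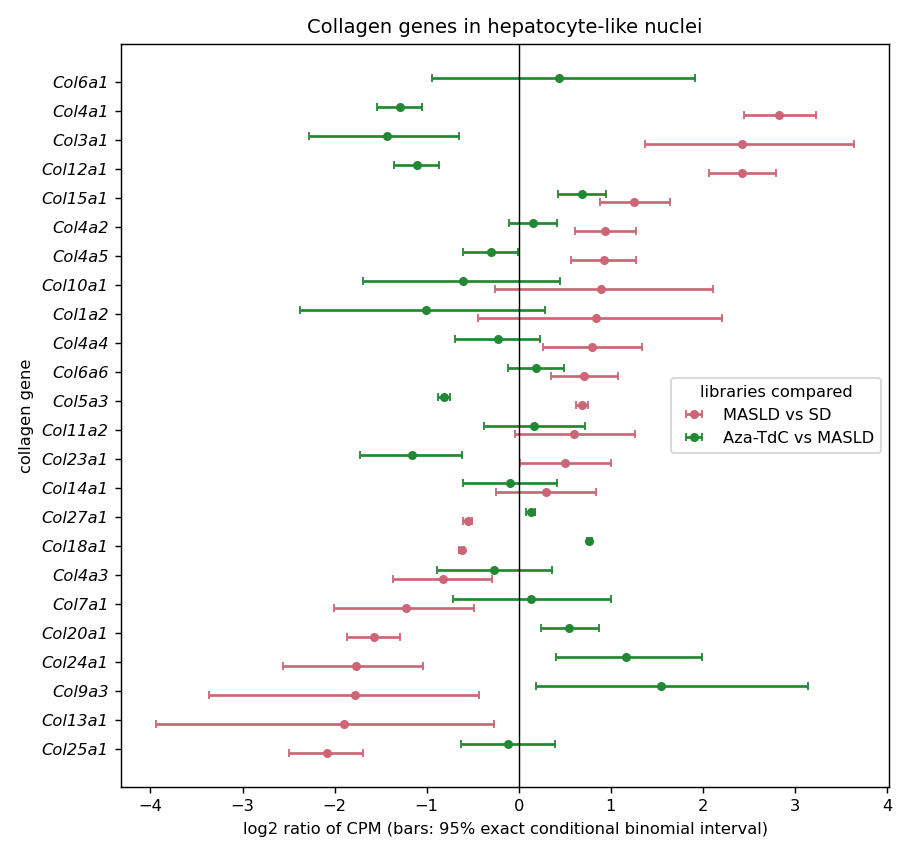
Log2 ratio of CPM in hepatocyte-like nuclei (x axis) for collagen genes with at least 20 UMIs over both libraries (y axis, ordered by MASLD vs SD), for MASLD vs SD and Aza-TdC vs MASLD, with bars for 95% exact conditional binomial intervals; both comparisons share the MASLD library. Col4a1, Col3a1 and Col12a1 lie to the right for MASLD vs SD and to the left for Aza-TdC vs MASLD, and Col25a1 lies to the left and then near 0.

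Among hepatocyte-like nuclei of 1 library, collagen genes also differed by cluster, although no collagen gene took part in the clustering. In SD, Col25a1 stood at 11.2 CPM (9.87 to 12.6) in cluster 1, at 1.45 CPM (0.970 to 2.08) in cluster 0, and at 0 UMIs in the 139 nuclei of cluster 4, which had the pericentral gene Glul among its 10 leading genes. In MASLD it stood at 3.63 CPM (2.76 to 4.69) in cluster 10 and at 0.0916 CPM (0.0111 to 0.331) in cluster 11, and in Aza-TdC at 2.27 CPM (1.75 to 2.91) in cluster 12 and at 0.368 CPM (0.148 to 0.758) in cluster 9. Col15a1 was likewise higher in clusters 1, 10 and 12 than in clusters 0, 11 and 9 of the same library, at 2.57 against 1.20 CPM, 7.51 against 2.89 CPM and 10.4 against 3.57 CPM. Col12a1 ran in the other direction, at 12 CPM (10.6 to 13.5) in cluster 11 and 5.44 CPM (4.36 to 6.71) in cluster 10, and it reached 15.9 CPM (11.4 to 21.7) and 18.6 CPM (13.0 to 25.9) in the MASLD and Aza-TdC nuclei of cluster 13, which also had Glul among its 10 leading genes. Col4a1 followed Col12a1 in MASLD, at 7.13, 12.1 and 15.5 CPM in clusters 10, 11 and 13. Col5a3 was lower in the MASLD nuclei of cluster 13, at 81.2 CPM (70.4 to 93.1), than in those of cluster 10, at 119 CPM (114 to 125).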

How the data were processed

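Per the labels' protocols, nuclei were sorted from frozen liver and run on 10x Genomics 3' kits. The authors deposited UMI counts, unnormalized, for each gene in each nucleus. Cell Ranger 6.1.2 made them, per the file headers, and Seurat 4.4.0 is named, with no role, in the submitters' processing notes. The annotation release is not stated there, nor are the use of introns or strand and any removal of free RNA (not given in the sources used here). Coordinates and gene spans are from GENCODE on GRCm38, which held 32235 of the 32285 features.

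The filter kept nuclei with 500 or more UMIs, 300 or more genes and no more than 5% mitochondrial UMIs, 7139, 6726 and 7591 in SD, MASLD and Aza-TdC, and 0, 202 and 7 were left out. The smallest SD barcode had 1546 UMIs, against 500 in the others. The 3 libraries were clustered together without collagen genes and without integration (Python 3.11.15, scikit-learn 1.9.0, scanpy 1.11.5 and igraph 0.11.9, with 3000 variable genes, 30 components, 15 neighbours, Leiden resolution 1). A cluster took the class whose markers had the highest median log2 ratio to all other nuclei, where that was at least 3 and at least 3 markers passed 2-fold, and failing that the hepatocyte class where 3 or more of its markers reached 0.25 of their highest level. Names rebuilt in this way may differ from those of the study. No doublet caller was run. Leaving out the 5% of nuclei with most UMIs in each library and class was an alternative.

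UMIs were summed per class and library and scaled to CPM of the class. Levels have exact Poisson intervals, shares exact Clopper-Pearson intervals, and ratios exact conditional binomial intervals (scipy 1.17.1), all at 95%. A count of 0 allows up to 3 UMIs. A gene was measured in a comparison with at least 20 UMIs over both libraries and counted from a log2 ratio of 1 either way. CPM per kb used the whole gene span, since nuclear RNA holds introns. Genes on the other strand overlap Col4a1, Col4a2, Col4a3, Col5a1, Col6a4, Col9a3, Col10a1, Col12a1, Col14a1, Col15a1, Col18a1, Col22a1 and Col24a1, and genes on the same strand Col20a1, Col24a1 and Col26a1, so reads may be shared. The ratio intervals were tested on simulated Poisson counts only. These leave out the clumping of UMIs in single nuclei, so the test cannot show how well the intervals cover in these data. Members and gene lists were chosen with earlier results of these data known. Members with at least 50 UMIs in a class were named with values, and of other lists up to 4 members with most UMIs in the class. Lum, Bgn, Prelp, Tgfb1, Tgfbr2, Ccn2, Acta2, Clec3b, Pi16, Gli1 and genes named in counts were chosen after their values were seen. Alternatives are under the closing section.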

Additional observations from a re-analysis of the deposited data

How the results depend on the processing

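Each of 12 summed ratios and 8 counts of genes past 2-fold was recomputed under the alternatives, and 180 values stayed within the set bounds, 39 moved and 1 reversed. Counts were compared by size, not by which genes they held. The stellate Aza-TdC count, for example, stayed at 3, but with at most 1% mitochondrial UMIs it held Col5a2 (higher), Col4a1 and Col5a3 (lower), and with nuclei classed by their own markers Col5a2 (higher), Col5a3 and Col1a1 (lower). At most 1% mitochondrial UMIs had the widest effect. The stellate fibrillar ratio of Aza-TdC to MASLD reversed from -0.43 to 0.14, that of MASLD to SD went to 0.12, the endothelial type IV ratios to -0.34 and 0.26, the mesothelial ones to -0.22 and 1.03, the stellate MASLD count from 5 to 1, the mesothelial counts to 3 and 3, and the endothelial Aza-TdC count from 2 to 1. With nuclei classed by their own markers, the stellate fibrillar ratios were 0.081 and -0.16, the stellate type IV ratio of Aza-TdC to MASLD was -0.28, the stellate MASLD count 3 and the endothelial MASLD count 1. With hepatocyte RNA subtracted, the stellate fibrillar ratio of Aza-TdC to MASLD was -0.83, the stellate Aza-TdC count 7 and the mesothelial one 0. Median-ratio scaling gave hepatocyte ratios of -0.55 and 0.52 for all collagens. Without the 5% of nuclei with most UMIs, the hepatocyte MASLD ratio was -0.43, the stellate Aza-TdC count 6, the mesothelial counts 1 and 0, and the endothelial MASLD count 1. In Glul clusters alone, the hepatocyte ratios were -0.34 and 0.32 and the counts 3 and 1, with 7 genes measured. A minimum of 50 UMIs gave 3 for stellate MASLD, 0 for mesothelial Aza-TdC and 0 for endothelial Aza-TdC. No minimum beyond 1 UMI gave 6 for stellate Aza-TdC, 4 for mesothelial Aza-TdC, 6 for endothelial MASLD and 12 for hepatocyte Aza-TdC. The mesothelial Aza-TdC count was 0 where the interval also had to exclude 0, and 0 with the depth of the smallest SD barcode as the limit. The stellate Aza-TdC count was 5 with collagens kept in the clustering. Without the Vwf-led cluster the endothelial Aza-TdC count was 0, with Col6a3 and Col14a1 no longer measured. The cause of these shifts was not tested. The alternatives without the Vwf-led cluster, with Glul clusters alone and with mitochondrial UMIs left out of the total were chosen after seeing the data, and the last moved none of the 20 values. Leiden resolution 2 moved none either.

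No paired analysis was possible because each group had 1 library. Differences between libraries therefore cannot be told apart from differences between single tissue pieces, and the few stellate-, mesothelial- and endothelial-like nuclei limit what can be read of low collagen genes.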

Other observations

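Col1a1, the only member always described that did not reach 50 UMIs in a class, had 66 UMIs over all kept nuclei. Col10a1, the network collagen of growth cartilage, had 47 UMIs, of which 11, 19 and 15 were in hepatocyte-like nuclei of SD, MASLD and Aza-TdC, and it overlaps Nt5dc1 on the other strand. Col16a1, a fibril-associated collagen, had 42 UMIs in all, with 4, 7 and 5 in stellate-like nuclei. Col9a3, a cartilage collagen, had 63 UMIs in all, with 22, 6 and 21 in hepatocyte-like nuclei. The remaining members with UMIs, such as Col22a1 with 8, Col8a2 with 6 and Col11a1 with 6, were too rare to compare.

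In endothelial-like nuclei, 2 of 7 measured basement membrane partners were 2-fold higher in MASLD than in SD (Lamb2 and Hspg2) and 5 were between, beside 11.4% of all genes, and 2 of 3 measured fibril-associated genes were higher (Bgn and Sparc). Hspg2, the basement membrane proteoglycan perlecan, had 29, 90 and 59 UMIs in SD, MASLD and Aza-TdC, at a MASLD to SD log2 ratio of 1.10 (0.49 to 1.76). Sparc had 17, 97 and 29 UMIs there, at ratios of 1.98 (1.23 to 2.82) and -1.63 (-2.29 to -1.02). In mesothelial-like nuclei Timp2 had 17, 74 and 51 UMIs, at a MASLD to SD ratio of 1.31 (0.53 to 2.16), and Bgn 2, 41 and 31. The median mitochondrial share moved with these values, at 0.332%, 1.96% and 0.472% in endothelial-like and 0.383%, 1.69% and 0.684% in mesothelial-like nuclei, and its part in them was not tested.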
